A study of Homo sapiens with 4 samples.

Results

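The genes described here make up the MHC class I antigen presentation pathway as it was read on the arrays, namely the heavy chains *HLA-B*, *HLA-C*, *HLA-E* and *HLA-F*, the light chain *B2M*, the peptide transporter genes *TAP1* and *TAP2*, and the immunoproteasome genes *PSMB8* and *PSMB9*. Members were found by symbol, as every gene probe whose gene symbol field, split where it lists several genes, holds 1 of these names. This gave 9 genes of the 20481 symbols on the array and 11 probes of 33096. The cells were LN229, an established human glioblastoma line grown in DMEM, transfected with an siRNA against *SOX2* (SOX2 knockdown) or with a control siRNA that has no target (mock knockdown). *SOX2* encodes an HMG-box transcription factor of stem cells, and the comparison asks which transcripts differ once it is depleted. Each group had 2 arrays, described in the study's methods as biological replicates, and both groups share the line, the medium and transfection with an siRNA. The model is 1 cell line, with no untransfected cells among the 4 arrays.

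Class I molecules show peptides from inside the cell to CD8+ T cells. The proteasome cuts proteins into peptides, and in its immunoproteasome form PSMB8, PSMB9 and PSMB10 replace the constitutive catalytic subunits PSMB5, PSMB6 and PSMB7. The transporter TAP1-TAP2 carries the peptides into the endoplasmic reticulum, where they are loaded on a heavy chain paired with beta-2-microglobulin, and interferons and the transactivator NLRC5 raise transcription of most of these genes. All members but *B2M*, which lies on chromosome 15, are in the MHC on chromosome 6. In the RefSeq gene table (assembly GRCh38.p14), *HLA-C* and *HLA-B* are neighbouring protein-coding genes, and *TAP2*, *PSMB8*, *TAP1* and *PSMB9* follow each other in this order.

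The start regions of 5 members are shown because of how these genes relate to each other. *HLA-B* and *HLA-C* share an array probe, and *B2M* is the partner of every heavy chain. *TAP1* and *PSMB9* are transcribed away from each other with starts 488 bases apart. They had the smallest and the largest changes of all member probes. Each window is the 250 bases before the RefSeq start of the first entry (GRCh38.p14), read 5′ to 3′ on the strand of the gene. Capitals mark matches on either strand to GAAANNGAAA (a repeated interferon regulatory factor element), TTCNNNGAA (STAT), GGGANTCCC (NF-kappaB), CCAAT (the CCAAT box) or CNTTGTT (SOX factors), where N is any base. Windows are *HLA-B* chr6:31357180-31357429 (minus strand), *HLA-C* chr6:31272093-31272342 (minus), *B2M* chr15:44711267-44711516 (plus), *TAP1* chr6:32853705-32853954 (minus) and *PSMB9* chr6:32853942-32854191 (plus).
HLA-B: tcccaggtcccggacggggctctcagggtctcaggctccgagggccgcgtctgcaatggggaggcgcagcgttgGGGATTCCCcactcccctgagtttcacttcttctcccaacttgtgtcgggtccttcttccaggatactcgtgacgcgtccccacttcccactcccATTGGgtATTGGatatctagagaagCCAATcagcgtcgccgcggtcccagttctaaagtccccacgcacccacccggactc
HLA-C: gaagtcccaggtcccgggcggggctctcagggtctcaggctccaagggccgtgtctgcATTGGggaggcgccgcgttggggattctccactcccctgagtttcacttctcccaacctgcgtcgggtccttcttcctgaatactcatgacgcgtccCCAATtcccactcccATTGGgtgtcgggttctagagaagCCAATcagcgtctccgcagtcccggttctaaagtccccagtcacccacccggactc
B2M: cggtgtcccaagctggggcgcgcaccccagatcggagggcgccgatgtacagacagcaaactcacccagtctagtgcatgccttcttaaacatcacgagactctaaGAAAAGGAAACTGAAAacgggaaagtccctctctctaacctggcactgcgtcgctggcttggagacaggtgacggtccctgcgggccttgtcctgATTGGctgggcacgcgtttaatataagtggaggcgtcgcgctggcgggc
TAP1: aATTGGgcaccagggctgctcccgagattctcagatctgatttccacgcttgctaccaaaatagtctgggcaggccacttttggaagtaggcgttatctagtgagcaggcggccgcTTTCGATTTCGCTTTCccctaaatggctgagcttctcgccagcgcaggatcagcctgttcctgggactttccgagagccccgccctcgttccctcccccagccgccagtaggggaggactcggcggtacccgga
PSMB9: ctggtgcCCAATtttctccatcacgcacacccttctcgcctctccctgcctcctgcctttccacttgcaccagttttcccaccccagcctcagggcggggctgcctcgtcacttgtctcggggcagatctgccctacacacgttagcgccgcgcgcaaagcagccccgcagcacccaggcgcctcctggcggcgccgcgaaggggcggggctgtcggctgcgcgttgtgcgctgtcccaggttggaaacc

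The *HLA-B* and *HLA-C* windows were identical at 226 of 246 aligned bases (91.9%). The *HLA-F* window, not printed, was identical to that of *HLA-B* at 205 of 245 aligned bases (83.7%). Of the 9 members, 8 had an entry in the promoter table. The interferon regulatory factor repeat GAAANNGAAA was found before *HLA-F*, *B2M*, *TAP1* and *TAP2*, that is 4 of 8 members, against 3.02% of all 35116 windows. In *B2M* and in *TAP1* it occurred as 2 overlapping matches. The same repeat with a single base between its units, GAAANGAAA, was found in no member and in 2.69% of windows. CCAAT was found in 6 of 8 members and 32% of windows, and the match in the *TAP1* window and the match in the *PSMB9* window are the same 5 bases, since both windows overlap by 13 bases. GGGANTCCC was found before *HLA-B* only (0.772% of windows), and TTCNNNGAA only in the second entries of *TAP1* and *PSMB8* (6.57%). CNTTGTT was found before none of the 8 members, against 10.4% of windows. A match is a description of the letters, and the lack of one says only that these letters are not in the window.

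Signals are the deposited normalized intensities divided by the 75th percentile of the gene probes on the same array, so that a value of 1 lies at that percentile. Each change is that of a probe against itself across arrays, because probes differ in how brightly they read. For the same reason, the levels of marker genes below are only a rough guide. Between 63.5% and 68.9% of gene probes on an array exceeded 3 in S/N, the signal relative to its noise. A probe was compared where both arrays of mock knockdown, or both of SOX2 knockdown, exceeded it. This left 21256 probes, 10 of the 11 member probes among them. All 5 glioma markers checked (*VIM*, *CD44*, *NES*, *TNC* and *CAV1*) passed, with *VIM* at 51.5 and 59.1 on the mock arrays. The note on treatment gives the line as SW620, from a colon cancer, and of 9 colon epithelium markers 3 passed, all below 0.1 on every array, with *CDH1* at the floor of 0.01 on all 4 arrays. Of 11 leukocyte markers 4 passed, *CD14*, *ITGAM* and *NKG7* among them, with *NKG7*, at 2.86 and 1.98 on the mock arrays and 2.23 and 3.24 after knockdown, the only one over 1. The T-cell genes *CD3D* and *CD3E* and the pan-leukocyte gene *PTPRC* were below 0.05 on every array. In RNA of a whole culture, fewer cells of a type and less RNA per cell cannot be told apart.

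The targeted gene read 0.467 and 0.701 after mock knockdown and 0.209 and 0.149 after SOX2 knockdown. The *SOX2* signal after knockdown was 0.307 of mock, a log2 change of -1.69 (SE 0.28, adjusted p = 0.117 by limma with Benjamini-Hochberg adjustment).

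All 10 member probes compared had a mean log2 signal below mock after SOX2 knockdown, by a log2 change between -0.51 and -0.01 with a median of -0.17. None passed the test and none was past a 2-fold change. Of all probes compared, 50.2% had a log2 change below 0, and the median was -0.0012. A change over 2-fold was found in 2.61% of all probes (554 of 21256) and in 0 of the 10 member probes, and one over 1.5-fold in 10.5% of all probes and again in 0 member probes. The groups did not overlap, with both knockdown arrays lower, for 3 of 10 member probes (*B2M*, *PSMB9* and 1 of 2 probes that name *HLA-C* alone), against 25.8% of all probes, which is close to the same share. For no member probe were both knockdown arrays higher, as they were for 21.2% of all probes. By limma with Benjamini-Hochberg adjustment over all probes, 0 probes of 21256 passed an adjusted p of 0.05 (0% called), whether or not they were members. At an unadjusted p under 0.05, with a lower signal, the member probes gave 1 call of 10, that of *PSMB9*, and all probes gave 9.16% (17.1% in either direction, 3626 probes). The same test called 826 probes when arrays were scaled to the median and 758 on the authors' table of processed values, *SOX2* among them in both, and no member probe was called under either.

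**Figure D1:**
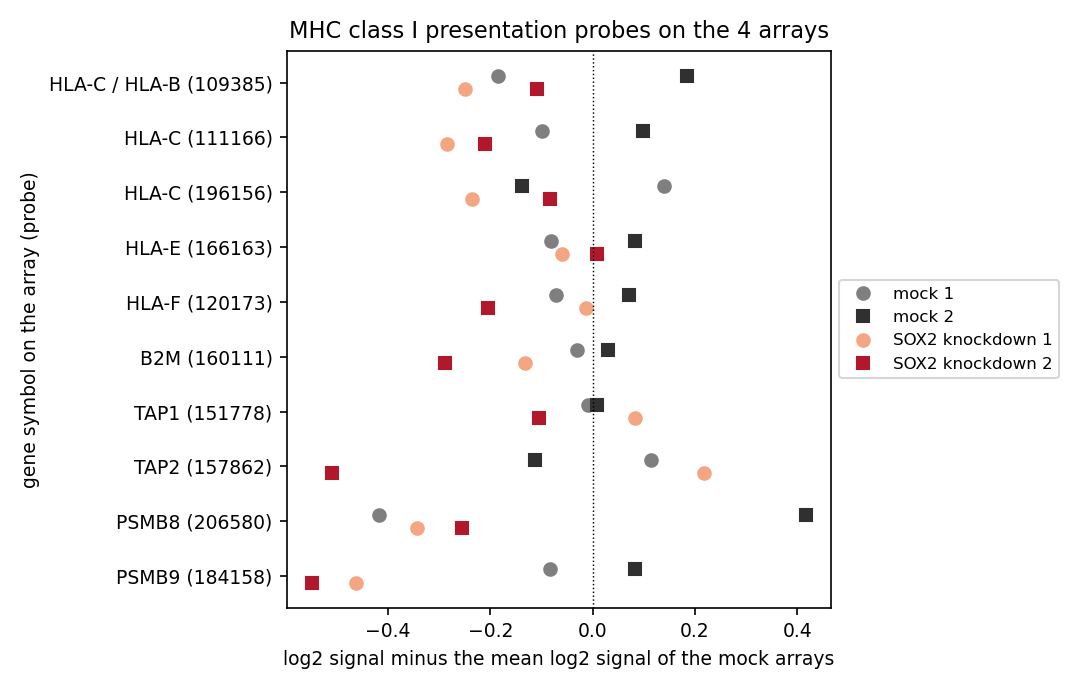
The x axis gives the log2 signal of each array minus the mean log2 signal of the mock arrays, for the 10 member probes compared (y axis). Circles are replicate 1 and squares replicate 2 of mock knockdown (greys) and SOX2 knockdown (reds). The red symbols lie to the left of both grey ones for HLA-C probe 111166, B2M and PSMB9, and the other probes overlap between groups.

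The heavy chains *HLA-B* and *HLA-C* present peptides to CD8+ T cells and, through *HLA-C* above all, are ligands of killer-cell receptors. They were read by 3 probes, all filed under the gene ID hCG2005653, so that *HLA-B* has no probe of its own. Probe 109385, which names both genes, read 5.21 and 6.72 on the mock arrays and 4.98 and 5.49 after knockdown, a log2 change of -0.18 (SE 0.18, 95% interval -0.66 to 0.30, adjusted p = 0.731). Its knockdown array 2 lay above mock array 1, and without mock array 2 the change was 0.00 on the log2 scale.

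Probe 111166, which names *HLA-C* alone, read 12.3 and 14.1 on the mock arrays and 10.8 and 11.4 after knockdown, a log2 change of -0.25 (SE 0.14, 95% interval -0.63 to 0.13, adjusted p = 0.477). Both knockdown arrays were lower than both mock arrays. Probe 196156, also *HLA-C*, read 9.38 and 7.74 on the mock arrays and 7.24 and 8.04 after knockdown, with a log2 change of -0.16 (SE 0.16, adjusted p = 0.736). Here the order of the mock arrays was turned and knockdown array 2 lay above mock array 2. The 3 probes therefore shared a direction in their means but not an order of arrays, and how far each reads transcripts of the other heavy chains was not tested, since the probe sequences were not used here.

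*HLA-E* and *HLA-F* are non-classical heavy chains, the first a ligand of the CD94-NKG2 receptors of natural killer cells. *HLA-E* (hCG26010.3) read 2.21 and 2.48 on the mock arrays and 2.24 and 2.35 after knockdown. The knockdown arrays lay between the mock arrays, and the log2 change was -0.03 (SE 0.14, 95% interval -0.39 to 0.34, adjusted p = 0.968). *HLA-F* (hCG25628.3) read 0.607 and 0.670 on the mock arrays and 0.632 and 0.554 after knockdown, a log2 change of -0.11 (SE 0.15, adjusted p = 0.818). Knockdown array 1 fell within the mock range and array 2 below it.

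Beta-2-microglobulin is the light chain that every class I heavy chain needs to reach the cell surface. *B2M* (hCG1786707.4) read 64.9 and 67.7 on the mock arrays and 60.5 and 54.3 after knockdown, 0.865 of mock. Both knockdown arrays were lower, with a log2 change of -0.21 (SE 0.14, 95% interval -0.57 to 0.15, adjusted p = 0.533). On mock array 1 the spot carried a flag value of 4, which on that array fell on 129 probes with raw readings of 1750115 scanner units or more. What that flag stands for is not given in the sources used here, and the lowest of those 129 readings was that of *B2M* itself.

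For both transporter genes, knockdown array 1 lay above both mock arrays and knockdown array 2 below both. *TAP1* (hCG17504.2) read 2.34 and 2.38 on the mock arrays and 2.50 and 2.19 after knockdown, with 1 knockdown array above and the other below both mock arrays. Its log2 change was -0.01 (SE 0.14, 95% interval -0.38 to 0.36, adjusted p = 0.987), the smallest of the member probes. *TAP2* (hCG2001583.1) read 0.279 and 0.238 on the mock arrays and 0.300 and 0.181 after knockdown by probe 157862, a log2 change of -0.15 (SE 0.28, 95% interval -0.90 to 0.61, adjusted p = 0.887). Its knockdown arrays stood on either side of the mock arrays, and were 0.73 apart on the log2 scale. The other *TAP2* probe, 145556, read 0.0545 and 0.0174 on the mock arrays and 0.0208 and 0.0554 after knockdown. It passed S/N 3 on mock array 1 and knockdown array 2 only and was not compared.

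The inducible proteasome subunits had the largest changes of the members. *PSMB9* (LMP2, hCG17510.4) read 2.22 and 2.50 on the mock arrays and 1.71 and 1.61 after knockdown, 0.703 of mock. Neither knockdown array reached the lower mock array, and the distance between groups was 3.03 times the larger gap between replicates. The log2 change was -0.51 (SE 0.14, 95% interval -0.87 to -0.14), with an unadjusted p of 0.0179 and an adjusted p of 0.198 by limma. It was the only member probe whose interval held no 0, and 7.18% of all probes compared had a lower log2 change. Over the 18 alternatives run, its log2 change stayed between -0.59 and -0.37. Its smallest adjusted p by limma, 0.0973, came with replicates paired across their numbers, a pairing chosen after seeing the data. The adjusted p was 0.464 with median scaling, 0.496 on the authors' table and 0.633 with the replicate number as a block.

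*PSMB8* (LMP7, hCG17507.4) read 1.48 and 2.64 on the mock arrays and 1.56 and 1.66 after knockdown. The mock arrays differed by 0.83 on the log2 scale and both knockdown arrays lay between them, so that the log2 change of -0.30 (SE 0.31, 95% interval -1.12 to 0.52, adjusted p = 0.738) was smaller than the gap between mock replicates. Its S/N of 3.58 on mock array 1 was the lowest of any member probe compared, and without mock array 2 the log2 change was 0.12. The third inducible subunit, *PSMB10*, read 0.554 and 0.699 on the mock arrays and 0.522 and 0.483 after knockdown, a log2 change of -0.31 (SE 0.17, adjusted p = 0.459). Among the constitutive subunits they replace, the log2 change was -0.16 for *PSMB5* (SE 0.16), 0.10 for *PSMB6* (SE 0.13) and 0.09 for *PSMB7* (SE 0.13). None of these 4 passed the test, and a difference between inducible and constitutive subunits was not tested.

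**Figure D2:**
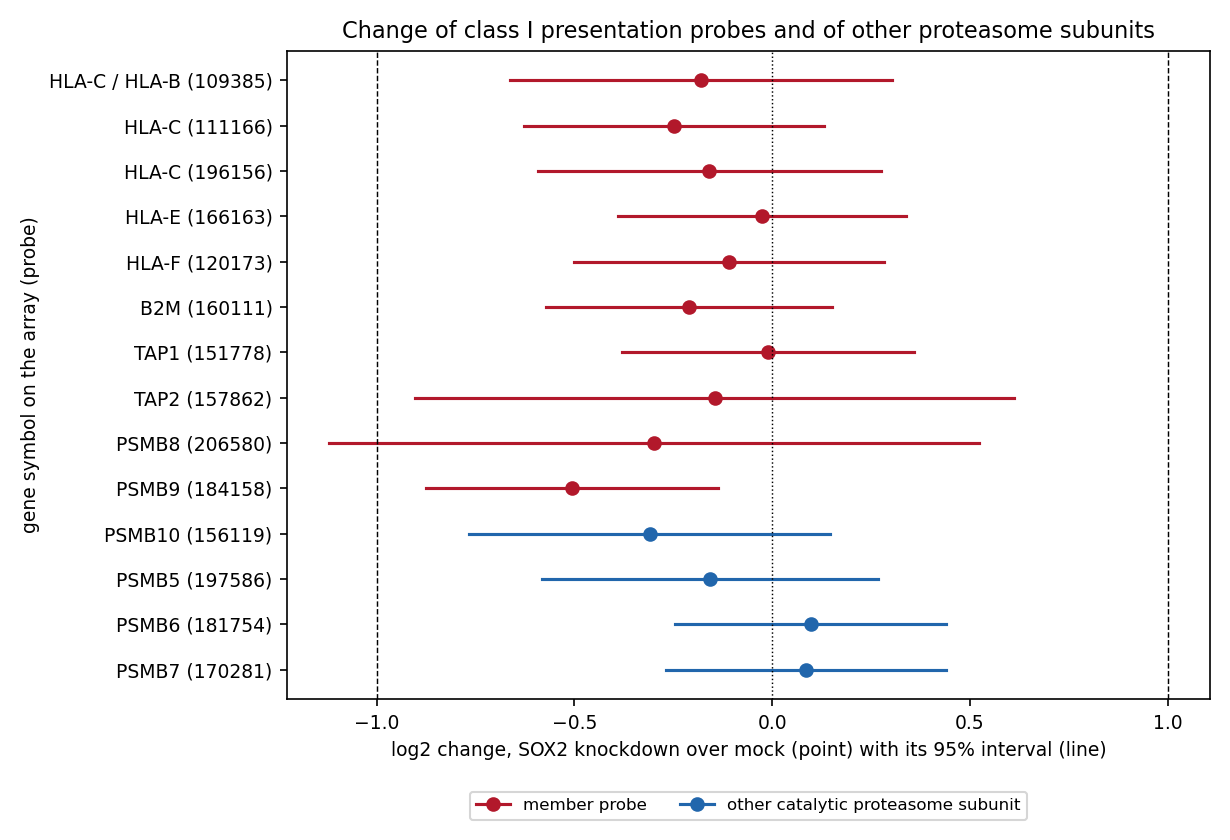
Points are the log2 change of SOX2 knockdown over mock (x axis) and lines its 95% interval from limma, for the 10 member probes compared (red) and 4 other catalytic proteasome subunits (blue). The dotted line marks no change and the dashed lines a 2-fold change. The interval of PSMB9, from -0.87 to -0.14, is the only one that holds no 0, and that of PSMB8 is the only one that reaches a 2-fold decrease.

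For 9 of the 10 member probes the 95% interval held 0, and for 9 of 10 it excluded a 2-fold decrease, the exception being *PSMB8*. A 2-fold increase lay outside all 10 intervals. The change was smaller than the larger of both gaps between replicates for 7 probes. It was larger for the 3 whose groups did not overlap, and a change of that size can only occur without overlap. The share over all probes was not computed.

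The arrays did not take equal parts in these differences. Mock array 2 was the highest of the 4 for 7 of 10 member probes, against 31.9% of all probes, and it was the lowest for none. SOX2 knockdown array 2 was the lowest for 5 of 10, against 27% of all probes. Mock array 2 was above mock array 1 by a median of 0.15 on the log2 scale over the member probes (8 of 10 higher), where all probes had a median of 0.03. This gap between mock replicates is about as large as the median change of -0.17 between groups, and without mock array 2 that median was -0.09. Bright probes also leaned towards lower values, since the 5314 brightest probes, which held 6 of the 10 member probes, had a median log2 change of -0.03 and both knockdown arrays were lower for 31.4% of them. The part of brightness and of mock array 2 in the members' values was not tested. The 3 probes of other genes nearest to the mean centred profile of the members over the 4 arrays, among 15873 ranked by root mean square distance, were *DCTD* (distance 0.0048), *UQCRH* (0.0062) and *CRR9* (0.0074), and 4 values per profile leave many genes close to any pattern.

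The rest of the pathway was read from short gene lists, with 1 probe for each gene, the brightest. Of 12 genes for peptide production (proteasome subunits, activators and cytosolic peptidases) 8 had a lower and 4 a higher mean after knockdown, with a median log2 change of -0.06. The largest changes were those of the proteasome activator *PSME1*, at -0.37 (SE 0.14, adjusted p = 0.302), and the cytosolic peptidase *THOP1*, at 0.34 (SE 0.18, adjusted p = 0.434).

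Of 9 genes for peptide loading in the endoplasmic reticulum, all 9 were lower on both knockdown arrays than on both mock arrays, where 25.8% of all probes were, and the median log2 change was -0.39. At an unadjusted p under 0.05 there were 4 of 9 lower, against 9.16% of all probes, and none passed after adjustment. The largest log2 changes were those of the aminopeptidases that trim peptides to length. *ERAP1* read 0.493 and 0.406 on the mock arrays and 0.318 and 0.297 after knockdown, a log2 change of -0.54 (SE 0.16, adjusted p = 0.215). *ERAP2* read 0.609 and 0.597 on the mock arrays and 0.425 and 0.421 after knockdown, a log2 change of -0.51 (SE 0.12, adjusted p = 0.169). Tapasin, which bridges the transporter and the heavy chain, was lower by less, with *TAPBP* at 0.231 and 0.253 against 0.212 and 0.213 and a log2 change of -0.18 (SE 0.13, adjusted p = 0.579).

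Among the other class I and class I-like genes, 10 of 16 were compared. Of these, 6 had a lower and 4 a higher mean after knockdown, with a median log2 change of -0.21. The lowest and the highest value of the list were those of the neonatal Fc receptor gene *FCGRT*, at -0.71 (SE 0.18, adjusted p = 0.187), and of the NKG2D ligand *ULBP2*, at 0.63 (SE 0.13, adjusted p = 0.138). The NKG2D ligands *MICA* and *MICB*, singled out after their values were seen, also had higher means, with log2 changes of 0.58 (SE 0.17) and 0.62 (SE 0.16) and adjusted p of 0.219 and 0.183. The list also holds the NKG2D ligands *ULBP1* and *ULBP3*, whose values are not given here, so nothing is said of these ligands as a class.

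Regulators of class I transcription were lower for 13 of 14 genes, with a median log2 change of -0.23. The exception was *IRF1*, an interferon-induced activator of class I genes, which read 0.429 and 0.488 on the mock arrays and 1.003 and 1.04 after knockdown. This is 2.23 times the mock level, with a log2 change of 1.16 (SE 0.14, adjusted p = 0.0938). It was the only probe of these 14 past 2-fold, in a direction in which 1.57% of all probes were. With normexp as the background correction it was 1.94 times mock, under the cutoff. The transactivator gene *NLRC5*, singled out after its values were seen, had a log2 change of -0.45 (SE 0.23, adjusted p = 0.425).

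Of 22 interferon-stimulated genes compared (28 listed), 21 had a lower mean, with a median log2 change of -0.47, and for 15 both knockdown arrays were lower than both mock arrays, as for 25.8% of all probes. Past 2-fold lower, where 1.04% of all probes were, stood *IFIT1*, *IFIT2*, *IFIT3* and *GBP2*. Lowest of the list was *IFIT3*, at 0.559 and 0.651 on the mock arrays and 0.223 and 0.233 after knockdown (log2 change -1.41, SE 0.14). Log2 changes were -1.23 for *IFIT1*, -1.26 for *IFIT2* and -1.14 for the guanylate-binding gene *GBP2*, with adjusted p between 0.0833 and 0.0835 for the 4 genes. With median scaling, on the authors' table and with a variance trend these 4 genes, *IRF1* and *CIITA* were under an adjusted p of 0.05. With normexp *IFIT1* was 0.545 of mock and no longer past 2-fold. *RSAD2* was past 2-fold in the other direction, at the floor of 0.01 and at 0.0291 on the mock arrays and 0.0193 and 0.0638 after knockdown (log2 change 1.04, SE 0.79), with groups that overlap and a log2 change of -0.46 with normexp. The member probes, most of them for interferon-inducible genes, had a median log2 change of -0.17, against -0.47 over this whole list. The ranges of both lists overlapped, and a difference between them was not tested.

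In the class II pathway, which presents peptides from outside the cell, 11 of 13 genes had a lower mean and the median log2 change was -0.30. For 8 of 13 both knockdown arrays were lower than both mock arrays, against 25.8% of all probes. Its transactivator gene *CIITA* was past 2-fold higher, as were 1.57% of all probes. It read 0.647 and 0.766 on the mock arrays and 1.57 and 1.40 after knockdown (log2 change 1.08, SE 0.16, adjusted p = 0.105). It was 1.57 times mock with normexp, 1.94 times without mock array 1 and 1.99 times without knockdown array 1, all under 2-fold. Of 7 housekeeping genes, each read by its brightest probe, 6 had a lower mean with a median log2 change of -0.08, from -0.47 for *GUSB* to 0.30 for *TBP*. Other probes of these genes spread wider. They gave log2 changes of 0.98 (SE 0.43) and 1.11 (SE 0.31) for *GAPDH*. For *PPIA* they gave 0.17 (SE 0.85) and -0.12, and for *RPLP0* -0.26. The *GAPDH* probe at 1.11 was dim, at 0.0363 and 0.0233 on the mock arrays.

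**Figure D3:**
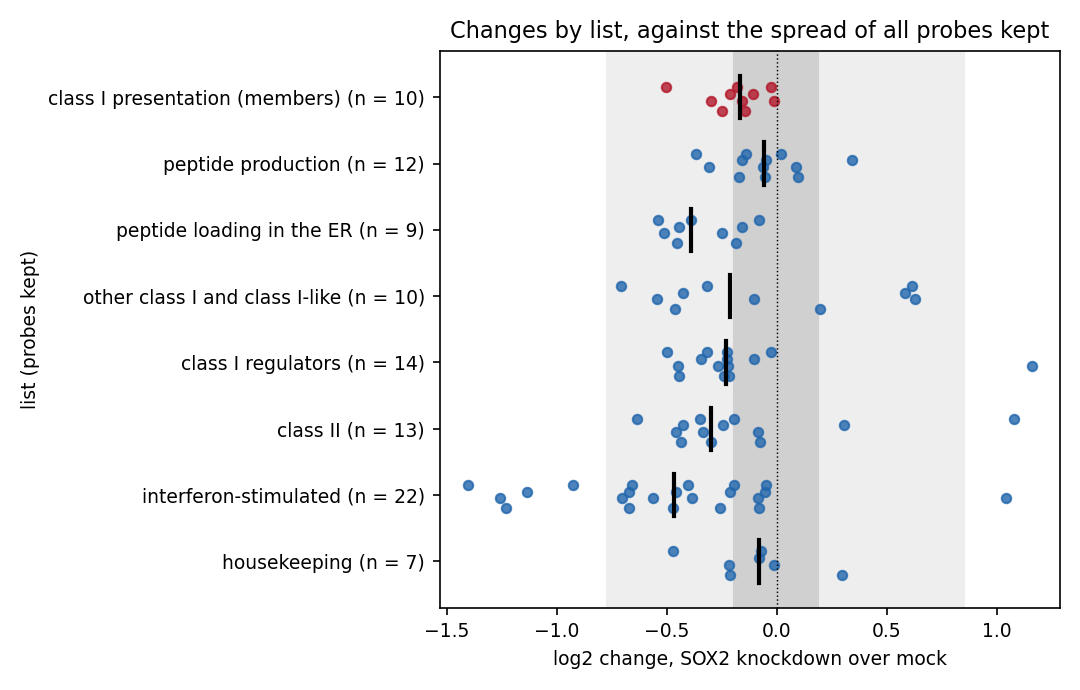
Each point is the log2 change of SOX2 knockdown over mock (x axis) of 1 probe, by list (y axis, with the number of probes compared), and black bars are list medians. The dark band holds the middle 50% of all 21256 probes compared, from -0.19 to 0.19, and the light band the middle 95%, from -0.77 to 0.85. All 10 member probes lie in the light band and below 0, while 5 interferon-stimulated genes lie to its left, and RSAD2, IRF1 and CIITA to its right.

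Of the 10 member probes, 5 turned their sign under at least 1 other setting. Leaving out 1 array moved the count of member probes with a lower mean from 10 to between 7 and 10. The change of *HLA-E*, *TAP1*, *TAP2*, *PSMB8* and the probe shared by *HLA-B* and *HLA-C* turned its sign without 1 of the arrays, and those of *HLA-E* and *TAP1* also with normexp or the assay-normalized signal, while those of *HLA-F*, *B2M*, *PSMB9* and both probes that name *HLA-C* alone did not turn under any of the 18 alternatives.

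**Figure D4:**
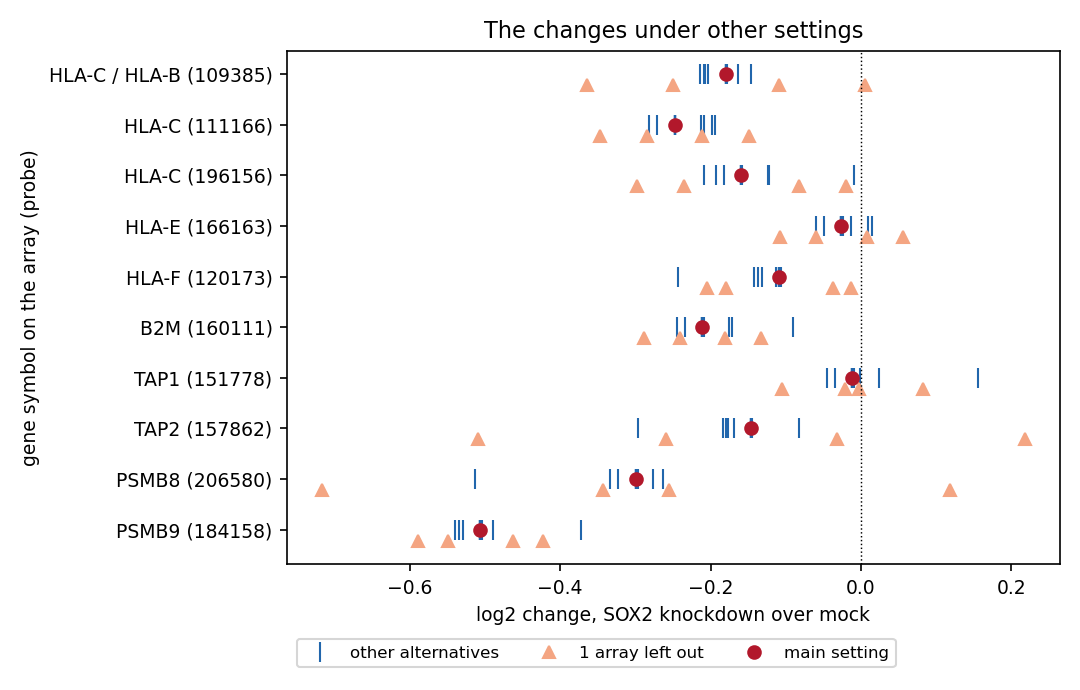
The log2 change of SOX2 knockdown over mock (x axis) of each member probe (y axis) in the main setting (red circles), with 1 array left out (triangles) and under the other alternatives (blue ticks). The values of PSMB9 lie between -0.59 and -0.37, whereas those of TAP2 with 1 array left out spread from -0.51 to 0.22.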

How the data were processed

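Total RNA of LN229 cells was labelled with biotin and hybridised to 1-colour Applied Biosystems arrays, 4 in all. The source names gave the group of each array and the titles its replicate number. The deposited scanner files hold for each probe a normalized intensity on a linear scale, background-corrected by the scanner software, and S/N as a score, per the file headers. A further deposited table holds the authors' processed values as a linear ratio to the probe's median. The array files name no genome build, the study's methods give hg18 for its analyses, and the version of the scanner software is not given in the sources used here.

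Control features and 210 probes with a flag of 5000 or more were left out. Each array was divided by its 75th percentile, floored at 0.01 and put on the log2 scale. The quoted SE, interval and p are from limma 3.58.1 (lmFit, eBayes, two-sided) in R 4.3.3, with Benjamini-Hochberg adjustment over the 21256 probes with S/N over 3 on both arrays of a group. Folds are ratios of linear means, as in the study's methods, which average probes by gene ID where single probes were used here. Of these steps only the limma fit was tested on simulated data, with independent noise on each array, and not the scaling, the floor or the S/N filter. Sequences are RefSeq's on GRCh38.p14, aligned with Biopython 1.88.

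The text names every member probe, *SOX2*, in each other list the probes past 2-fold or else the 2 largest changes, the proteasome subunits *PSMB5*, *PSMB6*, *PSMB7* and *PSMB10*, *TAPBP*, and the 3 nearest profiles. Some genes that this rule takes in are not reported here. The members and lists were chosen with earlier results of these data known. Of 19 other class I genes listed, 16 were found by symbol and the rest were not analysed here. The p-values rest on the spread between these arrays, whose number limits the precision. In limma the variance of each probe is drawn towards that of all probes compared, so a p is not from that probe's spread alone. The alternatives covered scaling, the authors' table, normexp, floors, filters, averaging by gene ID, the variance model, fold cutoffs, replicate pairing and leaving out each array. A crossed pairing was added after seeing the data.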

Additional observations from a re-analysis of the deposited data

How the results depend on the processing

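The count of probes past 2-fold, 554, was 220 with normexp (offset 50), 363 with a floor of 0.05, 302 where all 4 arrays had to exceed S/N 3 and 1373 without an S/N filter. It was 2234 at a cutoff of 1.5-fold, 119 at 3-fold and between 682 and 932 with 1 array left out. No member probe was past any of these cutoffs. The count by limma at an adjusted p of 0.05, which was 0, became 826 with median scaling, 758 on the authors' table, 5 where all 4 arrays had to exceed S/N 3 and 287 with a variance trend, and stayed 0 with any 1 array left out. No member was called under any of the 18 alternatives. Of the interferon-stimulated genes 6, 5 and 4 were called with median scaling, the authors' table and the variance trend, and under each of these *IRF1* and *CIITA* were called too. The 7 pathway genes past 2-fold were 3 with normexp, where *IRF1*, *CIITA*, *IFIT1* and *RSAD2* were no longer past it, and 5 to 7 with 1 array left out. *CIITA* was not past it without mock replicate 1 or without SOX2 knockdown replicate 1, and *RSAD2* not without mock replicate 1 or without SOX2 knockdown replicate 2. The member median of -0.17 ranged from -0.21 to -0.09, both with 1 array left out.

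Signs turned for *TAP1*, whose log2 change was 0.0245 on the assay-normalized signal, 0.16 with normexp and between -0.10 and 0.082 with 1 array left out. They turned for *HLA-E*, at 0.0090 on the assay-normalized signal, 0.0151 with normexp and between -0.11 and 0.056 with 1 array left out. With 1 array left out, they also turned for the probe of *HLA-B* and *HLA-C* (from -0.36 to 0.0048), for *PSMB8* (from -0.72 to 0.12) and for *TAP2* (from -0.51 to 0.22). The positive ends were reached without mock replicate 2, except for *TAP1* and *TAP2*, where it was without SOX2 knockdown replicate 2. The causes were not tested.

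With the replicate number as a block, 0 probes passed an adjusted p of 0.05, as without it, and 1905 against 3626 had an unadjusted p under 0.05. The deviations of same-numbered arrays correlated at r = -0.48 (Pearson, 21256 probes), so the numbers were not taken as pairs. With the pairing crossed, which was chosen after seeing the data, 5518 probes had an unadjusted p under 0.05 and 0 passed an adjusted p of 0.05. A lone array in a group was assumed to vary like the other group. The dim *TAP2* probe was not compared, and 2 arrays per group limit every test.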
